A study of Rattus norvegicus with 6 samples.

Results

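Hepatokines are proteins that the liver secretes into the blood and that act on other organs, and 10 genes for such proteins and for inhibin beta subunits were followed in the livers of rats given faecal microbiota transplants (FMT). The genes were taken by name from the expression table, namely Ahsg, Fetub, Fgf21, Inhba, Inhbc, Inhbe, Rbp4, Lect2, Gdf15 and Hgfac, which are 10 of its 30957 genes. Each name had 1 row, and no other gene of the table overlapped any of them. All 10 passed edgeR's filter for low counts, as did 12210 genes in all.

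The livers came from female Sprague Dawley rats, bought at 3 weeks of age and kept free of specific pathogens. Both groups first drank antibiotics in repeated courses, which depleted their own gut microbiota, and were then gavaged daily for 14 days with pooled faecal suspension. The t-PBS rats received it from donors injected with PBS, and the t-DHEA rats from donors injected with dehydroepiandrosterone (DHEA), an androgen precursor that induces features of polycystic ovary syndrome in rats. RNA of 3 t-PBS and 3 t-DHEA livers was sequenced, so rats within a group shared a pooled inoculum and neither group kept an untreated microbiota.

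The question asked of the livers was whether microbiota shaped by DHEA changed hepatic gene expression. Each liver had between 12348511 and 14316886 counts on genes, and the genes followed here took between 1.05% and 1.37% of it. All 8 hepatocyte markers examined, among them Alb, Hnf4a and Cps1, were counted in every liver. Summed mesothelial markers, from the liver's outer lining, were at 24.0 to 27.3 CPM (counts scaled to a common library total) in t-PBS and at 1.72 to 12.4 CPM in t-DHEA livers. Of the 6 mesothelial markers, 4 had counts in every liver and none was at 0 in all of them. Stellate cell and fibroblast markers (8 of 8 found) summed to 564 to 730 CPM in t-PBS and to 465 to 545 CPM in t-DHEA livers. Bile duct markers (6 of 6 found) summed to 18.9 to 23.6 against 9.50 to 17.2 CPM, and red blood cell markers (4 of 4 found) to 180 to 280 against 295 to 575 CPM. The bile duct list shares Krt7 with the mesothelial list, so its sum is not separate from the mesothelial one. Of 5 bile duct markers tested between the groups, 4 were lower and 1 was higher in t-DHEA livers. Of 8 stellate cell and fibroblast markers 6 were lower and 2 higher, and of 4 red blood cell markers 3 were higher and 1 lower. Kupffer cell markers overlapped between the groups, at 450 to 574 against 494 to 669 CPM, and so did endothelial markers (6 of 7 found), at 226 to 348 against 323 to 338 CPM. In whole tissue, fewer cells of a type and less RNA per cell cannot be told apart.

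The genes fall into 4 kinds. Ahsg and Fetub encode fetuin-A and fetuin-B, plasma glycoproteins of the cystatin superfamily; fetuin-A inhibits the insulin receptor and binds calcium phosphate. Inhba, Inhbc and Inhbe encode the beta A, C and E subunits, which pair through disulphide bonds into activins within the transforming growth factor beta family. The beta A subunit also pairs with the alpha subunit into an inhibin. Activins signal through type II and type I receptors to Smad2 and Smad3, and the beta C and beta E subunits are made chiefly by hepatocytes. Fgf21 and Gdf15 encode hormones released under nutritional and cellular stress; FGF21 acts through FGF receptors with the co-receptor beta-Klotho, and GDF15 through GFRAL in the hindbrain. The remaining genes encode the plasma carrier of retinol (Rbp4), leukocyte cell-derived chemotaxin 2 (Lect2) and the serine protease that activates hepatocyte growth factor (Hgfac).

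None of the 10 genes passed the comparison of t-DHEA with t-PBS livers by the study's criteria (p under 0.05 before adjustment and a change of more than 1.2-fold). Those criteria called 4.95% of all genes tested (604 genes) in edgeR's quasi-likelihood test, 240 (1.97%) higher and 364 (2.98%) lower in t-DHEA livers, or 157 higher and 471 lower when libraries were scaled by their totals alone. No gene of the table had an adjusted p below 0.05, against 634 genes (5.19%) with an unadjusted p below 0.05, and DESeq2 and edgeR's likelihood-ratio test gave 24 and 28 genes at that adjusted p. For each of the 10 genes the values of the groups overlapped. The groups did not overlap for 10.1% of all genes tested, so overlap in all 10 does not set these genes apart. The log2 fold changes, given throughout as t-DHEA minus t-PBS, ran from -0.39 for Fgf21 to 0.16 for Gdf15, with 7 above 0 and 3 below, where 50.4% of all genes tested were above 0. Their median was 0.030, and that of all genes tested was 0.0013. The unadjusted p-values ran from 0.186 for Fgf21 to 0.944 for Ahsg, and every adjusted p was at least 0.986 (edgeR).

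The 95% intervals set how large a difference these livers could still hold. For 6 genes, Ahsg, Inhbc, Inhbe, Rbp4, Lect2 and Hgfac, the interval lay within a 1.5-fold change in either direction. For Fetub and Inhba it lay within a 2-fold change but not within 1.5-fold. Only the intervals of Fgf21 and Gdf15 reached a 2-fold change. The smallest p that an exact permutation test of 3 livers and 3 livers allows is 0.1, and on log2 CPM the test gave between 0.3 for Fgf21 and 0.9 for Ahsg, Inhbc and Hgfac (two-sided).

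**Figure D1:**
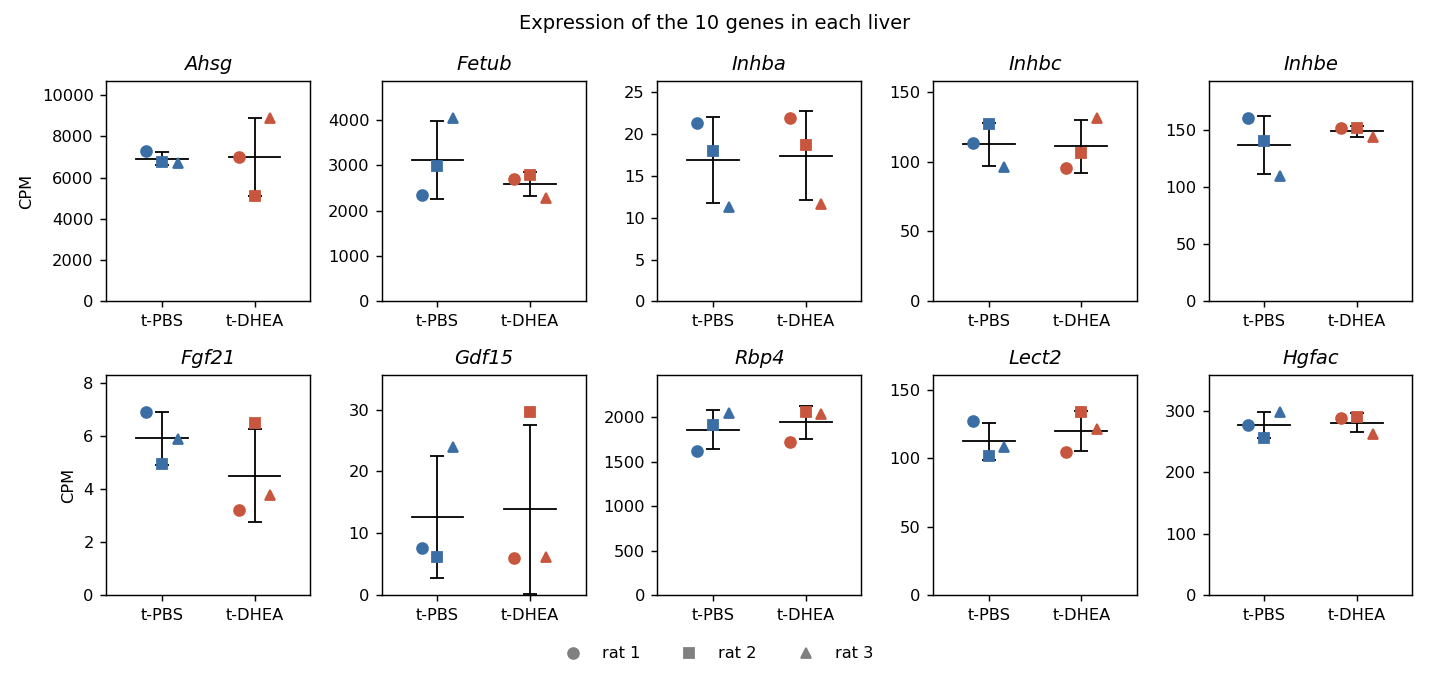
Expression of each gene in CPM (vertical axis, from 0) in t-PBS and t-DHEA livers, with one symbol per rat and the group mean ± SD (n = 3) in black. The groups overlap for every gene, and Gdf15 stands at 23.9 and 29.7 CPM in 1 liver of each group against 5.94 to 7.64 CPM in the others.

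Per kilobase of gene, the levels of the 10 genes spanned from above 1000 FPKM to below 10 FPKM, where FPKM is the count scaled to gene length and library total. Ahsg had the highest level, with a mean of 2894 ± 503 FPKM (SD, n = 6 livers). Rbp4 followed at 2016 ± 203 FPKM and Fetub at 1872 ± 433 FPKM. The ranges of these neighbours overlapped, Ahsg being above Rbp4 in 5 of 6 livers and Rbp4 above Fetub in 5 of 6. Fetub was 13.4 times as high as the next gene, Lect2, at 140 ± 14.9 FPKM, which did not differ from Hgfac at 136 ± 7.02 FPKM beyond their spread. Inhbe, at 52.5 ± 6.38 FPKM, was above Inhbc, at 28.7 ± 4.30 FPKM, in 6 of 6 livers without overlap. Gdf15, Fgf21 and Inhba were the lowest, with means of 14.5 ± 11.6, 8.32 ± 2.39 and 6.71 ± 1.82 FPKM, and their ranges overlapped.

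**Figure D2:**
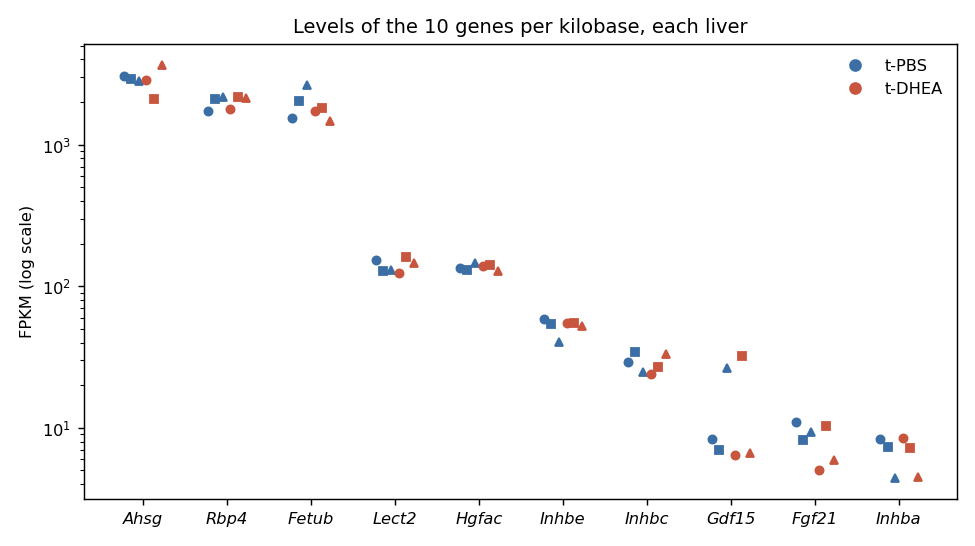
FPKM (vertical axis, log scale) of the 10 genes ordered by their mean, with a point for each of the 6 livers. The points show 3 tiers, Ahsg, Rbp4 and Fetub above 1000 FPKM, Lect2 and Hgfac between 124 and 160 FPKM, and the remaining genes below 60 FPKM.

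Fetuin-A and fetuin-B lie next to each other on chromosome 11 of Rnor_6.0, Fetub from 81648885 to 81660395 and Ahsg from 81707804 to 81735592, with 47408 bases and no other listed gene between them. Ahsg was expressed at 7291, 6753 and 6719 CPM in t-PBS rats 1, 2 and 3, and at 6982, 5088 and 8898 CPM in t-DHEA rats 1, 2 and 3. The t-DHEA livers held both the lowest and the highest value of Ahsg, so the group means of 6921 ± 321 and 6989 ± 1905 CPM (SD, n = 3) were close while the spread was wider in t-DHEA livers, a difference in spread that was not tested. The log2 fold change of Ahsg was 0.014 with a standard error of 0.20, a 1.01-fold change with a 95% interval from 0.743 to 1.37, and its sign turned when libraries were scaled by their totals alone (log2 fold change -0.023).

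Fetub stood at 2348, 2985 and 4053 CPM in t-PBS and at 2694, 2784 and 2283 CPM in t-DHEA rats 1, 2 and 3. T-PBS rat 3 was highest, and the t-DHEA livers lay within the range of t-PBS rats 1 and 2 apart from t-DHEA rat 3, which was slightly below it. The fold change was 0.827 with an interval from 0.608 to 1.12 (unadjusted p = 0.194, adjusted p = 0.986, edgeR). Fetub depended on single livers, since its log2 fold change was -0.44 without t-PBS rat 1, where it met the criteria (unadjusted p = 0.0310, adjusted p = 0.996, edgeR), and -0.044 when t-PBS rat 3 was left out. The ratio of Ahsg to Fetub in FPKM, which needs no scaling between libraries, was 1.97, 1.44 and 1.05 in t-PBS and 1.65, 1.16 and 2.48 in t-DHEA rats 1, 2 and 3. The groups overlapped in that ratio (exact permutation test on its log2, two-sided, p = 0.6, and 0.6 after adjustment over the 2 ratios tested).

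Among the inhibin beta subunits, Inhbe and Inhbc are neighbours on chromosome 7 of Rnor_6.0, at 70640075 to 70643169 and 70646519 to 70661891, with 3349 bases between them. Inhbe was expressed at 161, 141 and 110 CPM in t-PBS and at 152, 152 and 144 CPM in t-DHEA rats 1, 2 and 3. The t-DHEA livers were close to each other and lay inside the wider range of the t-PBS livers. Their fold change was 1.09 with an interval from 0.878 to 1.35 (unadjusted p = 0.394, adjusted p = 0.989, edgeR), and the log2 fold change was 0.25 when t-PBS rat 1 was left out and -0.015 when t-PBS rat 3 was.

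Inhbc had 113, 127 and 96.1 CPM in t-PBS and 95.04, 106 and 131 CPM in t-DHEA rats. Each group held a liver near the lowest and one near the highest value, and the fold change was 0.987 with an interval from 0.785 to 1.24. Inhbe exceeded Inhbc in FPKM by 2.03, 1.58 and 1.63 times in t-PBS and by 2.28, 2.04 and 1.56 times in t-DHEA livers, and this ratio did not separate the groups either (exact permutation test on its log2, two-sided, p = 0.6).

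Inhba lies on chromosome 17 at 51898217 to 51912496 and had 305, 244 and 149 counts in t-PBS and 266, 250 and 150 counts in t-DHEA rats 1, 2 and 3. In CPM these were 21.4, 18.0 and 11.3 against 22.0, 18.7 and 11.6. Rat 3 was lowest in both groups and the order of the rats was the same in both, although the labels state no pairing of rats by number. The spread between livers within each group exceeded the difference between groups. The fold change was 1.03 with an interval from 0.672 to 1.58.

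The partners, receptors and Smads of activins were taken as a list of 16 genes, of which 12 passed the filter for low counts. One of these, the type II receptor Acvr2b, was higher by the study's criteria and none was lower. Acvr2b had 8, 8 and 8 counts in t-PBS and 13, 16 and 12 counts in t-DHEA livers. The groups did not overlap, as for 10.1% of all genes tested. Only the t-DHEA livers, where it was higher, carried Acvr2b past the filter for low counts, so its call is not independent of that filter. The difference was 0.86 on the log2 scale (standard error 0.33, unadjusted p = 0.0308, adjusted p = 0.957, edgeR). The call was lost in 9 of the 14 alternative settings that could test it. Among them were DESeq2, the fit without the filter (unadjusted p = 0.0517, edgeR) and 5 of 6 fits with a liver left out. Of those 6 fits, only the one without t-DHEA rat 3 kept the call. The log2 fold change was 0.87 in DESeq2, 0.25 in limma on log2(FPKM + 1) and between 0.77 and 0.95 with a liver left out. The rat number as a block also lost the call (log2 fold change 0.85, unadjusted p = 0.0600, edgeR).

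The inhibin alpha subunit Inha had at most 3 counts in any liver, and the beta B subunit Inhbb at most 5. Follistatin (Fst), which binds activins and blocks them, had 2 counts in t-PBS rat 2 and 0 in the other livers, where a count of 0 allows up to 3 counts, or 0.210 to 0.243 CPM by counting error alone. Fstl3, a relative of follistatin, had 4, 8 and 5 counts in t-PBS against 0, 3 and 3 in t-DHEA livers. These 4 genes were below the filter and were not tested in the fit as reported. The median log2 fold change of the 12 genes tested was 0.063, against 0.0013 for all genes.

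Fgf21 lies on chromosome 1 at 101595579 to 101596822 and had 99, 67 and 78 counts in t-PBS and 39, 87 and 49 counts in t-DHEA rats 1, 2 and 3. These counts were 6.94, 4.94 and 5.89 CPM against 3.22, 6.51 and 3.79 CPM. T-DHEA rats 1 and 3 lay below every t-PBS liver, and t-DHEA rat 2 lay above 2 of the 3 t-PBS livers. The log2 fold change of -0.39 (standard error 0.27, unadjusted p = 0.186, adjusted p = 0.986, edgeR) was a fold change of 0.763 with an interval from 0.498 to 1.17. Without t-DHEA rat 2 it was -0.75 and met the criteria (unadjusted p = 0.0106, adjusted p = 0.968, edgeR). Without t-DHEA rat 1 it was -0.20.

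The lowest Fgf21 values were found in the livers with the highest level of clock genes that peak in phase with Dbp, a comparison chosen after the values were seen. The mean log2 CPM of 9 such genes, each centred on its mean over the 6 livers, was 0.65 in t-DHEA rat 1 and 0.57 in t-DHEA rat 3, and between -0.44 and -0.037 in the remaining 4 livers. All 9 had log2 fold changes above 0, and Dbp, Tef, Per2 and Per3 met the criteria, with log2 fold changes of 1.16, 0.67, 0.84 and 1.09 and adjusted p-values of 0.909, 0.815, 0.801 and 0.796 (edgeR). Per3 alone of these had an adjusted p below 0.05 under an alternative, at 0.00842 in DESeq2 and 0.0199 in edgeR's likelihood-ratio test. The call of Dbp was lost when t-PBS rat 1 or 2 or t-DHEA rat 1 or 3 was left out, with log2 fold changes of 1.01, 0.97, 1.001 and 0.91. Dbp, Tef and Per genes encode transcription regulators of the circadian clock and its output. The part of clock phase in the Fgf21 values was not tested. A mean of 9 fasting genes, among them Pck1 and Cpt1a, was -0.40 in t-DHEA rat 1 and 0.23 in t-DHEA rat 3. These were its lowest and highest values over the 6 livers. The part of fasting state in the Fgf21 values was not tested either.

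**Figure D3:**
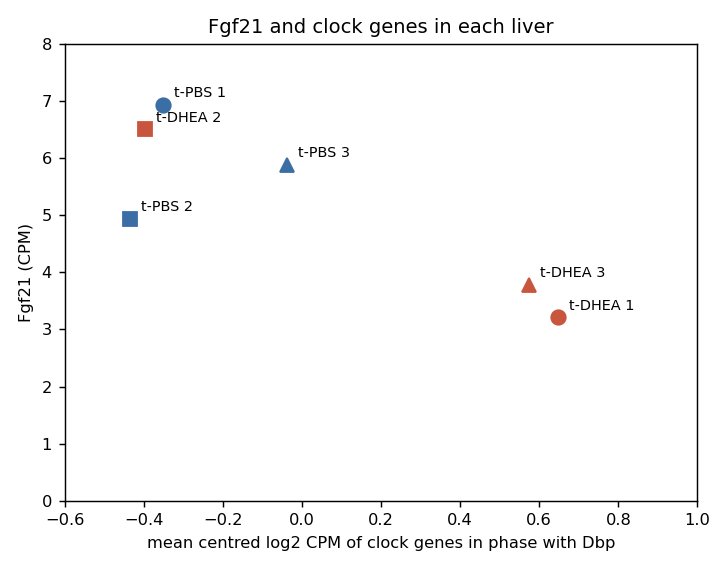
Fgf21 in CPM (vertical axis) against the mean centred log2 CPM of 9 clock genes in phase with Dbp (horizontal axis), one symbol per liver, t-PBS in blue and t-DHEA in red. T-DHEA rats 1 and 3 lie at the lower right, at 3.22 and 3.79 CPM, and the remaining livers lie between 4.94 and 6.94 CPM on the left.

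Of 9 genes for receptors, the co-receptor and regulators of Fgf21, all were tested and none met the criteria. Of the 9 log2 fold changes 8 were below 0, with a median of -0.16, where 50.4% of all genes tested were above 0. The FGF receptors Fgfr1, Fgfr2, Fgfr3 and Fgfr4 and the nuclear receptor Ppara, which activates Fgf21 in fasting, were among the genes below 0, and Klb, which encodes beta-Klotho, was at 0.11. The lowest p in this list was that of Nr1h4, the bile acid receptor FXR, with 119 ± 17.8 CPM in t-PBS and 101 ± 4.08 CPM (SD, n = 3) in t-DHEA livers. Its groups did not overlap, as for 10.1% of all genes tested, and the log2 fold change was -0.23 (adjusted p = 0.974, edgeR). Nr1h4 met the criteria when libraries were scaled by their totals alone (-0.27) and was -0.10 when t-PBS rat 1 was left out.

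Gdf15 lies on chromosome 16 at 20555395 to 20557978 and had 109, 83 and 317 counts in t-PBS and 72, 397 and 79 counts in t-DHEA rats 1, 2 and 3. In CPM these were 7.64, 6.12 and 23.9 against 5.94, 29.7 and 6.10. A single liver in each group, t-PBS rat 3 and t-DHEA rat 2, was high, and the highest liver had 5.0 times the CPM of the lowest. The standard deviation of log2 CPM over the 6 livers was 1.06, which only 111 of the 12210 genes tested exceeded, and the median over all genes was 0.19. The fold change between groups was 1.12 with an interval from 0.380 to 3.29 (unadjusted p = 0.822, adjusted p = 0.993, edgeR). It turned with the single livers, the log2 fold change being -1.05 when t-DHEA rat 2 was left out and 1.02 when t-PBS rat 3 was, with unadjusted p-values of at least 0.0917 when any liver was left out.

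The genes whose centred log2 CPM was closest to that of Gdf15, among 10847 genes with a symbol and a mean of at least 1 CPM, were Btg2, Tpd52 and Plekha1, at root mean square differences of 0.32, 0.44 and 0.45 over 6 livers. Btg2, an antiproliferative gene of the BTG family, stood at 85.4 CPM in t-PBS rat 3 and 67.6 CPM in t-DHEA rat 2 and at 23.2 to 32.2 CPM in the others. For Fgf21 the closest genes were Dctd, which encodes a deoxycytidylate deaminase, Dusp6, a phosphatase of MAP kinases, and the metalloprotease gene Adamts15, at 0.11, 0.13 and 0.14. Dctd had only 11 to 31 counts per liver and Adamts15 10 to 20 counts, so counting error weighs on their distances. Dusp6 was 50.5, 37.4 and 38.0 CPM in t-PBS and 23.8, 38.8 and 29.6 CPM in t-DHEA rats, and met the criteria with a log2 fold change of -0.45 (unadjusted p = 0.0422, adjusted p = 0.957, edgeR). The call of Dusp6 was lost without t-PBS rat 1, t-DHEA rat 1 or t-DHEA rat 3, where the log2 fold change was -0.29, -0.30 and -0.42, and with the rat number as a block (-0.46). Tpd52 and Dctd met the criteria when t-DHEA rat 2 was left out, with log2 fold changes of -1.06 and -0.94. All of these genes were picked for resembling Gdf15 or Fgf21 over the same 6 livers. Their calls and fold changes are therefore not results separate from those of Gdf15 and Fgf21. These likenesses describe 6 livers that also differ in feeding, clock and blood genes, and they were not tested.

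**Figure D4:**
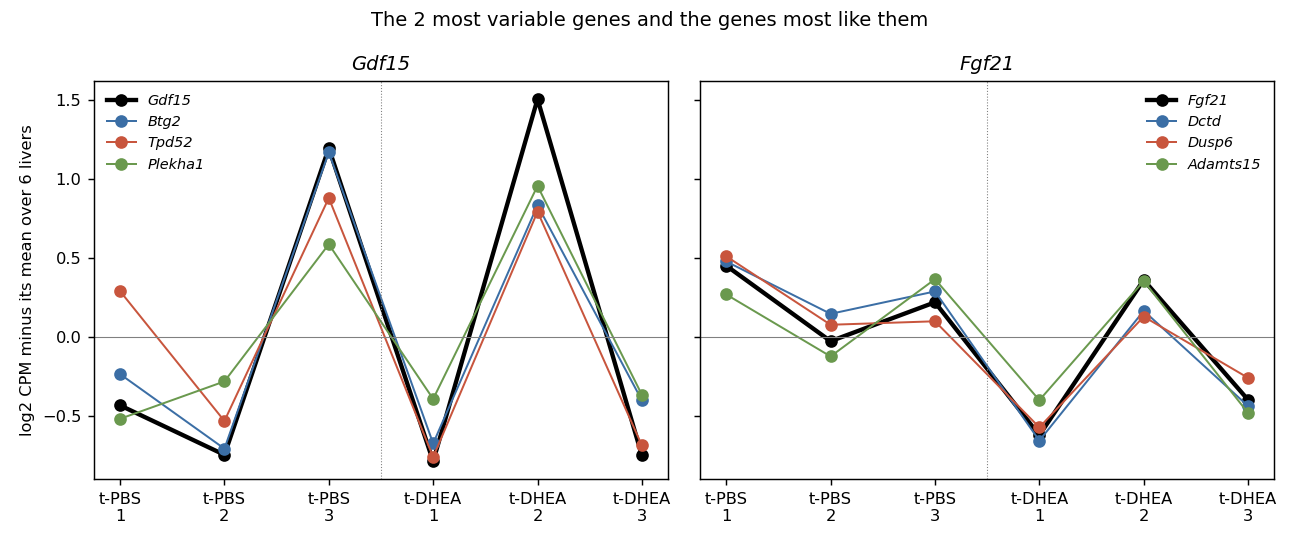
Log2 CPM minus its mean over the 6 livers (vertical axis) for Gdf15 and Fgf21 in black and the genes closest to each in colour, with livers along the horizontal axis. Gdf15 and its closest genes peak in t-PBS rat 3 and t-DHEA rat 2, and Fgf21 and its closest genes are lowest in t-DHEA rats 1 and 3.

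Fgf21, Gdf15 and Inhbe are known targets of the integrated stress response, in which the kinases Eif2ak3 and Eif2ak4 raise the transcription factor Atf4. Of 16 genes of this response, 15 were tested and none met the criteria, with 5 above 0, 10 below 0 and a median log2 fold change of -0.059. Atf4 itself was 215, 178 and 155 CPM in t-PBS and 163, 205 and 176 CPM in t-DHEA rats. Chac1, a glutathione-degrading enzyme, had the lowest p of the list and was highest in t-DHEA rat 3, at 6.26 CPM against 1.47 to 2.11 CPM in the other livers. Its log2 fold change of 0.87 (unadjusted p = 0.121, adjusted p = 0.986, edgeR) was -0.012 when t-DHEA rat 3 was left out, and 1.195 when t-DHEA rat 1 was, where it met the criteria (unadjusted p = 0.0381, edgeR). The livers with high Gdf15 were therefore not those with high Chac1. Nor did the list as a whole follow Gdf15. The mean log2 CPM of its 15 genes, each centred on its mean over the 6 livers, was 0.11 in t-PBS rat 3 and -0.048 in t-DHEA rat 2. It was highest in t-DHEA rat 3, at 0.22. Atf3, a stress-induced transcription factor named here after its values were seen, did follow Gdf15, with 78 counts in t-PBS rat 3 and 117 in t-DHEA rat 2 against 6 to 19 counts in the others. Igfbp1, an insulin-regulated binding protein also named after its values were seen, was 291 and 250 CPM in those livers, 130 CPM in t-DHEA rat 3 and 51.9 to 68.2 CPM in the rest.

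The promoters of Fgf21, Inhbe and Gdf15 are shown because these stress-responsive genes took different courses over the livers. They are RefSeq sequences of the rat assembly GRCr8, 250 bases before to 50 after the start, available for 9 of the 10 genes, and capitals mark the motifs found on either strand. One motif searched was TGATGCAA, a core of the composite element bound by C/EBP and ATF proteins. The E-box of basic helix-loop-helix factors was searched as CACGTG. The AP-1 site of Fos and Jun proteins was searched as TGANTCA. The TATA box was searched as TATAAA.
Fgf21 (chr1:105221327-105221626, minus strand): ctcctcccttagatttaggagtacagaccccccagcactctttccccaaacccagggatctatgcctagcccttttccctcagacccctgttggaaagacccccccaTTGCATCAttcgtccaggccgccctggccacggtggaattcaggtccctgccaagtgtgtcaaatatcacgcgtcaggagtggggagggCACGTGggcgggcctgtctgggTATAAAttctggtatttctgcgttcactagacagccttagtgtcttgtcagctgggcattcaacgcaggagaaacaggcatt
Inhbe (chr7:65064470-65064769, minus strand): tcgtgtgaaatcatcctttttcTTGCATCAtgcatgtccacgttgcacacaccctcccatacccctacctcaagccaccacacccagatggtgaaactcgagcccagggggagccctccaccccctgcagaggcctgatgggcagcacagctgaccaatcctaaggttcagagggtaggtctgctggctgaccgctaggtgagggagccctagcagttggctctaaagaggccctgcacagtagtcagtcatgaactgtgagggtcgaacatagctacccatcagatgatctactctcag
Gdf15 (chr16:18839015-18839314, plus strand, the downstream of 2 starts): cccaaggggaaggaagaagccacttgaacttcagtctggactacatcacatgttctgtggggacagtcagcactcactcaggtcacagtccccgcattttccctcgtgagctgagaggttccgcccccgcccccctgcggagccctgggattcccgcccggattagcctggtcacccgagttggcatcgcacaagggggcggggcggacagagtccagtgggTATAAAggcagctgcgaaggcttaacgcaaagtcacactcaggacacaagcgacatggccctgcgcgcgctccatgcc
The C/EBP and ATF core, in its reverse complement TTGCATCA, began 143 bases before the start of Fgf21 and 228 bases before that of Inhbe. It was in 0.795% of 33469 rat promoter windows of the same length. Fgf21 also held an E-box beginning 54 bases before the start, found in 6.42% of windows, and a TATA box beginning 32 bases before it. The Gdf15 window held a TATA box 28 bases before the start and none of the other motifs, and a TATA box was in 14.2% of windows. TGANTCA was in the windows of Rbp4 and Lect2 and in 7.33% of all. Although Fgf21 and Inhbe shared the first motif, Fgf21 was lowest in t-DHEA rats 1 and 3 and Inhbe in t-PBS rat 3. A match of letters is a description and not a binding site.

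Of the other secreted proteins, Rbp4, on chromosome 1 from 256806472 to 256813711, was expressed at 1623, 1906 and 2045 CPM in t-PBS and at 1724, 2061 and 2032 CPM in t-DHEA rats 1, 2 and 3. Rat 1 was lowest in both groups and the ranges overlapped almost wholly. The fold change was 1.04 with an interval from 0.848 to 1.29. Among 6 listed carriers and receptors of retinol, 4 were tested and none met the criteria. Ttr, whose protein binds RBP4 in plasma, was 3946, 4904 and 4789 CPM in t-PBS and 3276, 4040 and 5883 CPM in t-DHEA rats.

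Lect2, on chromosome 17 from 8489266 to 8495496, had 127, 101 and 108 CPM in t-PBS and 105, 134 and 122 CPM in t-DHEA rats. Of the 3 highest livers 2 were t-DHEA, and the fold change was 1.07 with an interval from 0.879 to 1.3. Its log2 fold change stayed between 0.014 and 0.20 whichever liver was left out. Tie1, an endothelial receptor to which LECT2 binds, was 23.6 ± 4.17 CPM in t-PBS and 24.6 ± 3.57 CPM in t-DHEA rats (SD, n = 3), and its log2 fold change was 0.060. Gfral, the receptor of GDF15, was listed at 0 counts in all 6 livers.

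Hgfac, on chromosome 14 from 80966903 to 80973456, varied least, with 276, 256 and 299 CPM in t-PBS and 289, 290 and 262 CPM in t-DHEA rats. The coefficient of variation over the 6 livers was 6.08%, and 9.66% of the genes tested had a smaller standard deviation of log2 CPM. Its fold change of 1.01 had an interval from 0.863 to 1.19, so that this gene alone had an interval within a 1.2-fold change in either direction. Of 9 genes around hepatocyte growth factor, 7 were tested and none met the criteria. Hgf was 34.1, 35.3 and 31.0 CPM in t-PBS and 31.5, 31.4 and 35.1 CPM in t-DHEA livers, and its receptor gene Met had a log2 fold change of 0.079. The lowest p was that of Spint1, an inhibitor of the activator, with 27 counts in t-PBS and 41 in t-DHEA livers (log2 fold change 0.71, adjusted p = 0.986, edgeR). It met the criteria when t-PBS rat 1 was left out (1.25, unadjusted p = 0.0485, edgeR) and was 0.38 when t-PBS rat 3 and 0.41 when t-DHEA rat 1 was left out.

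Outside the 10 genes, another list held 15 liver hormones, of which 13 were tested, 6 with log2 fold changes above 0 and 7 below. One of the 13 met the criteria, as did 4.95% of all genes tested. That gene was Fgl1, which encodes fibrinogen-like 1 (hepassocin), a hepatocyte-secreted protein. Fgl1 was expressed at 407, 517 and 542 CPM in t-PBS and at 609, 824 and 717 CPM in t-DHEA rats 1, 2 and 3. Every t-DHEA liver lay above every t-PBS liver, and the groups did not overlap for 10.1% of all genes tested. The difference was 0.55 on the log2 scale (standard error 0.15, unadjusted p = 0.00534, adjusted p = 0.805, edgeR). Fgl1 met the criteria in each of the 15 alternative settings, with log2 fold changes from 0.44 to 0.66 when single livers were left out.

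Over all 11 lists of other genes, 7 of the 97 genes tested were higher and 1 was lower by the criteria, which is 8.25% against 4.95% of all genes, and 4 of the 8 were the clock genes given above. The others were Fgl1, Srebf1, Lcn2 and Acvr2b, the last of which passed the filter for low counts only through the t-DHEA livers. Lcn2, which encodes the acute phase protein lipocalin-2, was the gene called among 9 acute phase genes tested, and fell from 8.62, 6.05 and 4.68 CPM in t-PBS to 3.47, 1.95 and 3.86 CPM in t-DHEA livers (log2 fold change -1.07, unadjusted p = 0.00698, adjusted p = 0.805, edgeR). Srebf1, a regulator of fatty acid synthesis, was the gene called among 10 feeding genes tested, with a log2 fold change of 0.50, and its call was lost in 8 of 15 alternative settings, among them those without t-PBS rat 1 (0.41), t-PBS rat 2 (0.43), t-DHEA rat 1 (0.25) or t-DHEA rat 3 (0.53) and the rat number as a block (0.47). The part of clock phase and of the cell type markers that separated the groups in the calls of Fgl1, Lcn2, Srebf1 and Acvr2b was not tested. The feeding list had 9 log2 fold changes below 0, a median of -0.37 and wide spread between livers, its mean centred log2 CPM running from -0.53 to 0.73 in t-PBS and from -0.69 to 0.35 in t-DHEA livers. Cpt1a, which admits fatty acids to mitochondria, had the lowest p of 9 fasting genes tested (log2 fold change -0.25, adjusted p = 0.970, edgeR), and no fasting gene met the criteria as reported. Cpt1a met them in 4 of 15 alternative settings, namely scaling by library totals alone (-0.29), limma with either pseudocount (-0.30 and -0.29) and the fit without t-DHEA rat 2 (-0.37).

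**Figure D5:**
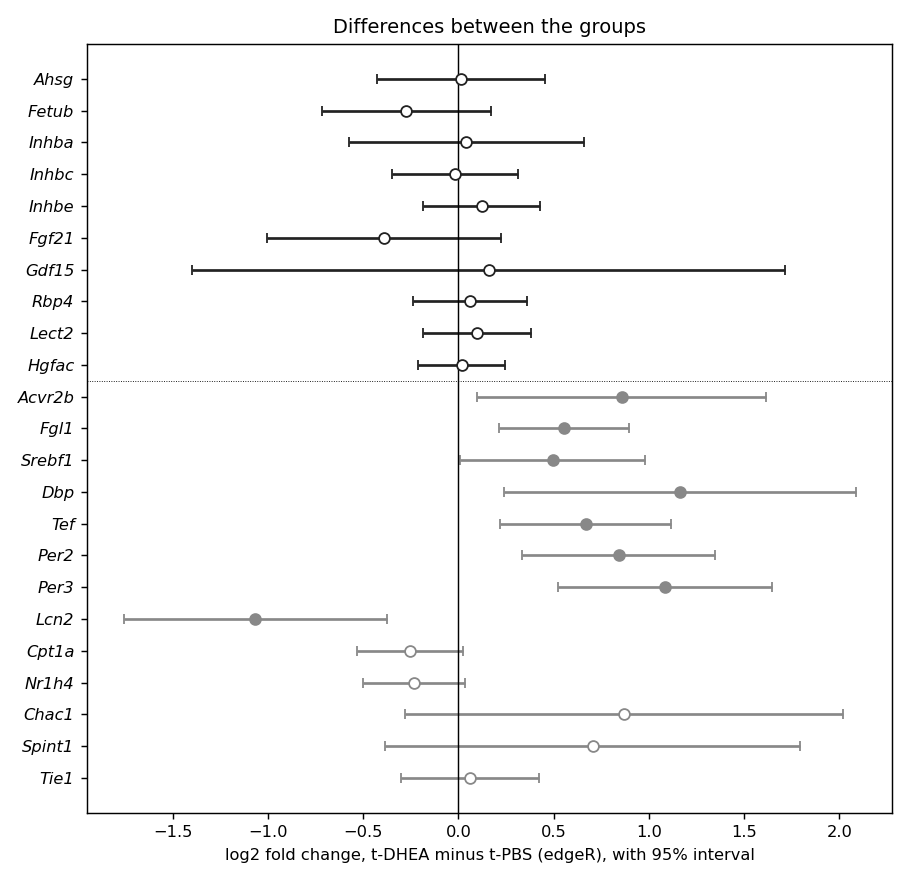
Log2 fold change of t-DHEA minus t-PBS (horizontal axis) with its 95% interval from edgeR's quasi-likelihood test, for the 10 genes (black, above the dotted line) and for named genes of the other lists (grey). Filled points met the study's criteria. The intervals of all 10 genes include 0, and that of Gdf15 is the widest of the 10, from -1.40 to 1.72.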

How the data were processed

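Liver RNA from 3 t-PBS and 3 t-DHEA rats was sequenced from paired-end TruSeq libraries. The authors filtered reads with Seqtk, mapped them to Rnor_6.0 with Hisat2 (version 2.0.4) and counted fragments per gene with Stringtie (version 1.3.0), and the raw counts they deposited carry no normalisation. The FPKM values the authors deposited divide counts by gene length and library total, and were used to compare levels between genes. The annotation release and strandedness are not given in the sources used here.

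Counts of all genes were tested with edgeR 4.0.16 in R 4.3.3 (default filter, TMM factors, quasi-likelihood test, Benjamini-Hochberg adjustment over 12210 genes). CPM values use TMM-scaled library sizes, and log2 CPM has a prior count of 2. The study's edgeR run on FPKM was not repeated. Standard errors and 95% intervals came from the test statistic. The genes followed and the lists were chosen with earlier results of these data known. Named genes were all 10, list genes meeting the criteria, the lowest p in each list, and the 3 genes closest to the 2 most variable of the 10. One gene that this rule names is not reported here. Outside this rule, partners, receptors and regulators (such as Inha, Fst, Klb, Atf4, Ttr and Hgf) were named for their roles, and Atf3 and Igfbp1 for their pattern, after their values were seen. Of 114 list entries outside markers, 109 were found, and where a symbol had 2 rows the one with more counts was used. Every pair of libraries differed by more than sampling noise, with a chi-square of at least 16.2 per degree of freedom. The rats were housed in pairs, and nothing says whether the livers sequenced came from separate cages. The limits given for counts of 0 cover counting error only. The alternatives included DESeq2 1.42.0, the likelihood-ratio test of edgeR, other scalings and filters, limma 3.58.1 on log2(FPKM + 0.1) and log2(FPKM + 1), the rat number as a block, and leaving out each liver.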

Additional observations from a re-analysis of the deposited data

How the results depend on the processing

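None of the 10 genes met the criteria under the 9 alternatives that kept all livers. When each liver was left out in turn, between 0 and 1 of them did, Fetub without t-PBS rat 1 and Fgf21 without t-DHEA rat 2. No adjusted p of any of the 10 was below 0.858 under any alternative. Among the genes of the other lists, 8 met the criteria as reported and between 7 and 14 with a liver left out, 14 without t-DHEA rat 2. Over all genes, 604 met them as reported and between 514 and 747 with a liver left out. Scaling by library totals alone moved the median log2 fold change of all genes to -0.037. The log2 fold change of Ahsg was -0.023 with totals alone, -0.060 in limma with either pseudocount and -0.022 with the rat number as a block. That of Gdf15 was -0.054 and -0.041 in limma with pseudocounts of 0.1 and 1, and -0.015 with the block. That of Hgfac was -0.020 with totals alone and -0.019 in limma with either pseudocount. The causes were not tested. With single livers left out, log2 fold changes that turned ran from -0.19 to 0.20 for Ahsg, -0.18 to 0.27 for Inhba, -0.15 to 0.083 for Inhbc, -0.015 to 0.25 for Inhbe, -1.05 to 1.02 for Gdf15, -0.027 to 0.14 for Rbp4, -0.034 to 0.075 for Hgfac, -0.012 to 1.195 for Chac1, -0.077 to 0.17 for Tie1, -0.84 to 0.53 for Btg2, -1.06 to 0.041 for Tpd52 and -0.39 to 0.62 for Plekha1. Rats of the same number in both groups did not deviate together (correlations of -0.057, -0.059 and -0.055 for rats 1, 2 and 3). Correlations between rats of different numbers reached 0.116. These deviations are from means of 3 livers, so they cannot decide whether rats were paired by handling, and the labels state no pairing. With the rat number as a block, 539 genes, 0 of the 10 and 8 genes of the other lists met the criteria. The inhibin partners Inha, Inhbb, Fst and Fstl3 were below the filter and were not tested in the fit as reported. Their few counts entered the fit without that filter, whose values for them are not given here.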
